A study of Mus musculus with 4 samples.

Results

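Cre-only open regions are stretches of chromatin in which the authors called an ATAC-seq peak in both libraries from AAV-Cre mice and in neither library from AAV-GFP mice. They were found by merging the peaks of all 4 libraries on chromosomes 1 to 19 wherever peaks shared at least 1 bp. Of 65969 merged regions, 790 met this rule, which is 1.20% of all regions. The converse pattern, a peak in both AAV-GFP and neither AAV-Cre library, was met by 7554 regions, or 11.5%. Because the presence and absence of peaks chose the regions, that contrast is described here and not tested. With 2 libraries against 2 there are 3 ways to split the libraries, and the smallest exact p would be 0.333.

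The tissue was the hypothalamic paraventricular nucleus (PVH), taken from mice aged 12 weeks. All 4 libraries, controls included, came from mice with the genotype Otp fl/fl; Ai14, in which Otp can be removed by Cre recombinase and the Ai14 allele reports Cre activity. 2 libraries came from animals injected as adults with AAV-GFP and 2 from animals injected with AAV-Cre, all dissected 4 weeks later. The study asked whether chromatin near targets of Otp becomes less accessible when Otp is deleted in the adult PVH. The Cre-only regions are the opposite pattern to that question. No sorting of infected cells is named in the protocols, so a library can hold nuclei without virus as well as non-neuronal nuclei. The labels do not give the part of Otp that is floxed, the promoter driving Cre, the sex, or the number of animals behind a library. They do not state that each library is a separate animal either, and differences between libraries of a group may be technical.

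ATAC-seq uses a transposase that inserts sequencing adapters into DNA not wrapped in nucleosomes. Peaks therefore mark promoters, enhancers and other regulatory elements, with promoters usually open in many cell types and distal elements open in fewer. Otp is a homeodomain transcription factor needed for the development of neuroendocrine neurons of the PVH, among them cells that make thyrotropin-releasing hormone, oxytocin, vasopressin and corticotropin-releasing hormone. In bulk tissue, more cells with an open region and more open chromatin per cell cannot be told apart.

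The deposited library lists held 57682 and 34100 peaks for AAV-GFP 1 and 2, and 23384 and 26612 peaks for AAV-Cre 1 and 2. In total length, the peaks came to 16778 kb (AAV-GFP 1), 12698 kb (AAV-GFP 2), 8097 kb (AAV-Cre 1) and 9483 kb (AAV-Cre 2). No read counts were used here, so depth is unknown, and a missing peak means a signal below the authors' threshold and not a signal of 0. Longer control lists make a Cre-only region rarer by construction. By gene list, 8 of 24 genes for PVH neuropeptides and hormones and 10 of 21 genes for PVH transcription factors had a region within 10 kb that was open in all 4 libraries. The same held for 24 of 31 synaptic and pan-neuronal genes, 10 of 19 astrocyte genes, 3 of 19 microglial genes and 1 of 18 vascular and meningeal genes. It also held for 16 of 28 male germline genes, 14 of 20 genes of ependyma and motile cilia and 18 of 20 housekeeping genes. The share over all genes was not computed, so these counts do not check the label of the tissue.

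A first view of the Cre-only regions comes from those that overlapped the promoter window of a gene, whether or not they covered its start. RefSeq promoter windows (build GRCm38.p6, 250 bases before to 50 after a start) were overlapped by Cre-only regions at 17 genes, of which 8 encode proteins and 9 are long noncoding RNAs. The windows printed here belong to the start under the second strongest Cre-only region, that of the noncoding RNA Gm33964, and to 3 protein-coding genes with no control peak at either end. Dnah11 encodes an axonemal dynein heavy chain of motile cilia, Npr3 the clearance receptor for natriuretic peptides and Ptgds the prostaglandin D2 synthase made by oligodendrocytes and meningeal cells. The windows lie at chr11:71649769-71650068 (+ strand, Gm33964), chr12:118198994-118199293 (- strand, Dnah11), chr15:11907322-11907621 (- strand, Npr3) and chr2:25469700-25469999 (- strand, Ptgds). They are written 5′ to 3′ on the strand of the gene, and capitals mark the bases that lie inside the Cre-only region.
Gm33964: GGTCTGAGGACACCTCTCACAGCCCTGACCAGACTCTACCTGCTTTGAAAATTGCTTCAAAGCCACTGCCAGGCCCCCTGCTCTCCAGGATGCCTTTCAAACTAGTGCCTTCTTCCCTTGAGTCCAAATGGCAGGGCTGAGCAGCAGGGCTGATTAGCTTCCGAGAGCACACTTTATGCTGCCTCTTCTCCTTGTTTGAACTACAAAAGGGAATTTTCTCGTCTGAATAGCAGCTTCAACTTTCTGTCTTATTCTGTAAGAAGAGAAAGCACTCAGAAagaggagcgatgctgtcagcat
Dnah11: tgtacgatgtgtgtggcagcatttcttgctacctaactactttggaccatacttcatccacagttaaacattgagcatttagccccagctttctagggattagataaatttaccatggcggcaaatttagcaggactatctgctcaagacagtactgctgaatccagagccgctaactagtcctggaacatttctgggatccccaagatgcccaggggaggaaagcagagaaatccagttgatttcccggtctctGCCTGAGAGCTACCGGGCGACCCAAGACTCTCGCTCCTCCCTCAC
Npr3: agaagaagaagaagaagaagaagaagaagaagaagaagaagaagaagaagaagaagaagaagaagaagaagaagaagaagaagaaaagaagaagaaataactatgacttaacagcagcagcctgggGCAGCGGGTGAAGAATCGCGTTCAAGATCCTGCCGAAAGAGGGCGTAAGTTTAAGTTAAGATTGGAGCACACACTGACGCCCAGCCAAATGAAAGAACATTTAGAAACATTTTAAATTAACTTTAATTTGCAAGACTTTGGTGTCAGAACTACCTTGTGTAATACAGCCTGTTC
Ptgds: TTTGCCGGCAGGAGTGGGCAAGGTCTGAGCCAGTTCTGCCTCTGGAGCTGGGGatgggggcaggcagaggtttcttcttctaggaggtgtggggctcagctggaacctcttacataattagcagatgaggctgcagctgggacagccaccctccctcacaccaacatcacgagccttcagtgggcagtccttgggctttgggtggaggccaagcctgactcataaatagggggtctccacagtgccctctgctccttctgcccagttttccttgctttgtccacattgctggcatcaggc

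The Cre-only region held 278 of the 300 bases at Gm33964 and 174 at Npr3, but 45 at Dnah11 and 53 at Ptgds, where it reached only the edge of the window. The Dnah11 region covered the last bases of the window and extended into the gene, whereas the Ptgds region covered the first bases and lay mostly upstream. The Npr3 window opened with a run of AGA repeats, outside the Cre-only region. The median GC content of the 17 windows was 49.3%, with a range of 39% to 79%. For comparison, it was 58.3% in 665 windows overlapped by control-only regions, 62.7% in 9177 windows under regions open in all 4 libraries, and 52.7% in all 32851 windows of the table. The ratio of observed to expected CpG followed the same order among the 3 region classes, with medians of 0.393, 0.650 and 0.810, and was 0.384 in all windows. The median CpG ratio under Cre-only regions was thus close to that of all windows. The classes also differed in the kind of gene. Protein-coding genes held 8 of the 17 windows, against 514 of 665 under control-only regions and 8085 of 9177 under regions open in all 4 libraries. Among all 32851 windows they held 21263. The part of this mix in the GC and CpG values was not tested. The letters TAATTA, a core recognised by many homeodomain proteins and identical on both strands, occurred in 2 of the 17 windows (11.8%), those of Ptgds and the noncoding RNA Gm36543, against 4.21% of windows under control-only regions, 1.64% under regions open in all 4 libraries and 5.29% of all windows. The match at Ptgds lies outside the Cre-only region and the one at Gm36543 inside it. These are matches of letters and not binding sites.

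Most Cre-only regions lay away from gene ends. Of the 790 regions, 50 lay within 1 kb of either end of a protein-coding gene, which is 6.33% (95% Wilson interval 4.83% to 8.25%). A further 393 regions lay inside a gene (49.7%, 46.3% to 53.2%) and 347 between genes (43.9%, 40.5% to 47.4%). Gene ends therefore made up a small share of the class. In regions open in all 4 libraries, which numbered 14331, the gene-end share was 54.8%. It was 11.6% (10.9% to 12.4%) in control-only regions and 14.9% (13.8% to 16.1%) in the 3861 regions with a peak in exactly 1 library of each group. With lists of equal length the share was 11.3% (9.95% to 12.9%) in Cre-only and 13.6% (12.2% to 15.2%) in control-only regions, so these intervals overlapped. Read the other way, 0.353% of regions at gene ends, 1.38% of regions inside genes and 1.48% of regions between genes were Cre-only. The intervals cover counting error only, and regions are not replicates of a condition.

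**Figure D1:**
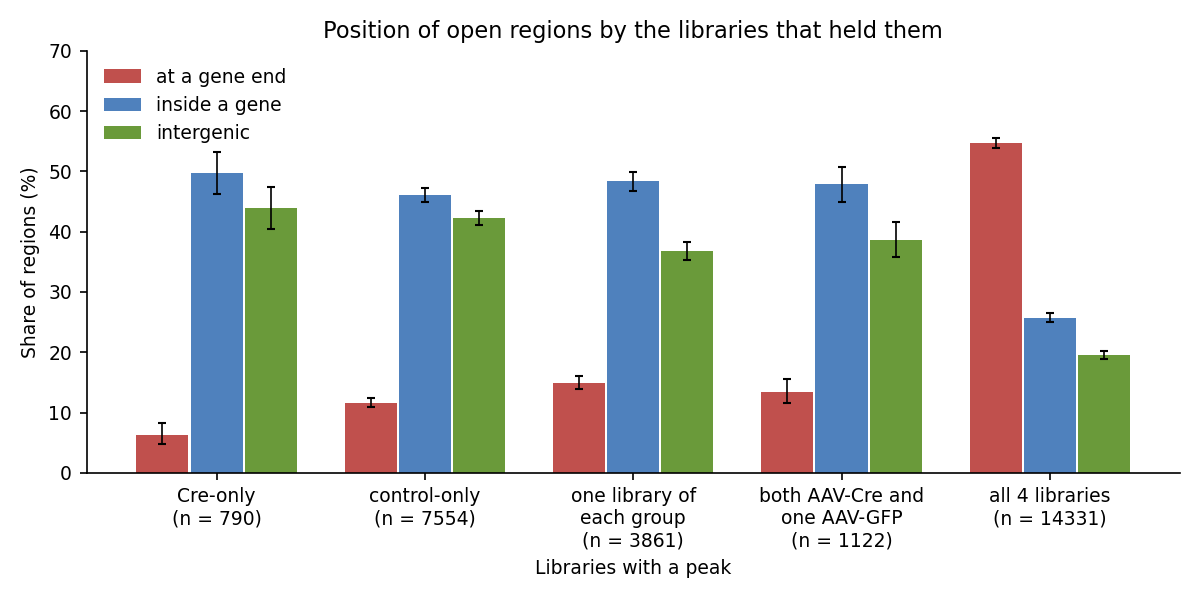
Share of regions at gene ends, inside genes and between genes, in percent of the regions of each class, with 95% Wilson intervals as error bars. Gene ends made up 6.33% of Cre-only regions, 11.6% of control-only regions and 54.8% of regions open in all 4 libraries.

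The distance to the nearest gene end showed the same order. Its median was 34640 bp for Cre-only regions, 27684 bp for control-only regions, 21936 bp for regions in 1 library of each group and 317 bp for regions in all 4 libraries. Cre-only regions were most often 10 to 50 kb from a gene end (34.8%). A further 24.1% (21.2% to 27.2%) lay over 100 kb away, against 22.2% of control-only regions and 7.05% of regions in all 4 libraries. The intergenic members lay a median of 51.9 kb from the nearest protein-coding gene, against 43.3 kb for all intergenic regions. For regions inside a gene, the length of the longest host gene had a median of 152 kb over Cre-only regions, close to 147 kb over all regions. These medians are over regions, so a gene counts once for each region it holds. Cre-only regions had a median merged width of 323 bp, against 299 bp for control-only regions and 623 bp for regions open in all 4 libraries.

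**Figure D2:**
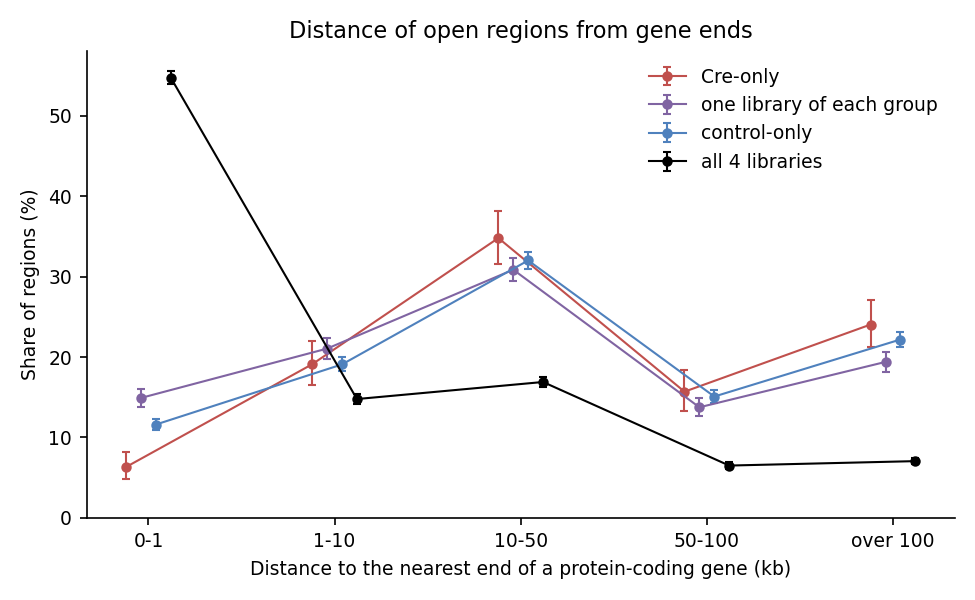
Share of regions by distance to the nearest end of a protein-coding gene, in percent of each class, with 95% Wilson intervals as error bars. Cre-only regions had 6.33% within 1 kb and 24.1% over 100 kb away, whereas regions open in all 4 libraries had 7.05% over 100 kb away.

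Cre-only peaks were weak to middling within their own lists. Their median fold enrichment, the authors' ratio of signal to background, was 5.11 in AAV-Cre 1 (interquartile range 4.43 to 5.93, range 2.84 to 11.9) and 5.40 in AAV-Cre 2 (4.56 to 6.15, range 2.32 to 10.5). The median −log10 p was 7.51 and 7.79. Ranked by −log10 p within the list, with 0 as the strongest, the median percentile was 66.4 in AAV-Cre 1 and 63.6 in AAV-Cre 2. Peaks in regions open in all 4 libraries ranked higher, at 33.5 and 29.7, with median folds of 6.55 and 6.85. Peaks in regions found in 1 library of each group ranked lower, at 76.9 and 76.0 with median folds of 4.76 and 4.85, so the Cre-only regions lay between these classes.

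The strength of a region and its class moved together. Among the 16243 regions with a peak in both AAV-Cre libraries, 4.86% were Cre-only. When these regions were grouped by the weaker of their 2 rank percentiles, none of the 1724 in the strongest 10% were Cre-only, which allows a share of up to 0.174%. The share was 0.113% between percentiles 10 and 20, 5.08% between percentiles 50 and 60, and 13.2% between percentiles 80 and 90. At percentiles 80 to 90 it was 2.87% for regions at gene ends (16 of 558), 18.0% inside genes (103 of 573) and 20.4% between genes (87 of 427). A peak's position and its strength therefore each went with being Cre-only, within this group of regions. Of the 790 members, 8 had both peaks within the strongest 30% of their lists and 81 (10.3%) within the strongest 50%.

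**Figure D3:**
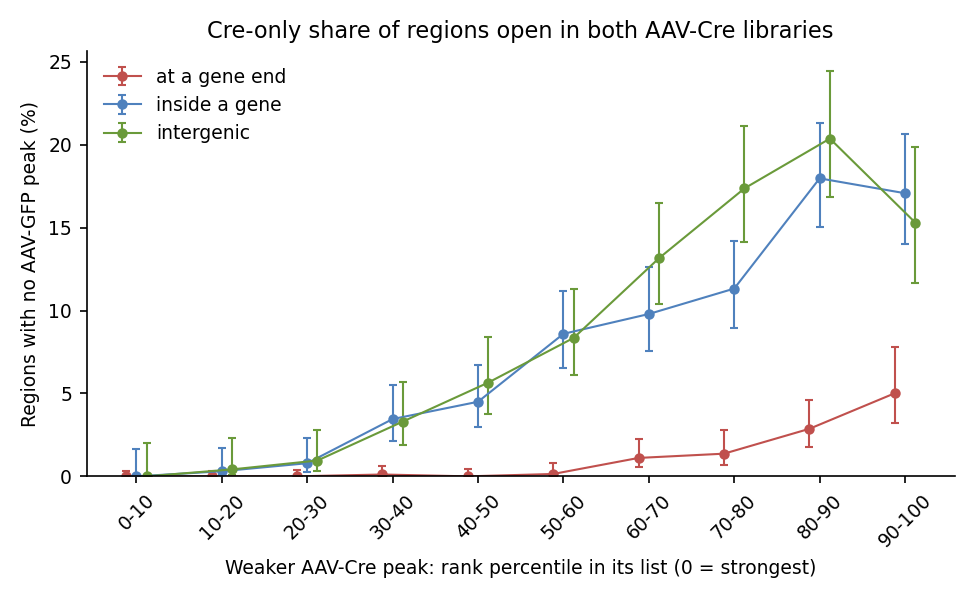
Percent of regions with peaks in both AAV-Cre libraries that were Cre-only, by the weaker of the 2 rank percentiles within the AAV-Cre lists (0 is the strongest peak), with 95% Wilson intervals as error bars and 1 line each for regions at gene ends, inside genes and between genes. At percentiles 80 to 90 the shares were 2.87%, 18.0% and 20.4% in that order, and all 3 were 0 in the strongest 10%.

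The rule asks for merged peaks of both AAV-Cre libraries, so their summits lie close by construction. The median distance between the summits of a member was 69 bp, against 54 bp in regions open in all 4 libraries. Agreement in height was lower. Across the 790 members, Pearson's r of log2 fold enrichment between the libraries was 0.34, against 0.74 across regions open in all 4 libraries. The members span a narrower range of folds, regions are not independent, and no test was made of either value. The fold was higher in AAV-Cre 2 at 438 members and in AAV-Cre 1 at 352, and at 86 members the libraries differed by more than 1.5 times.

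**Figure D4:**
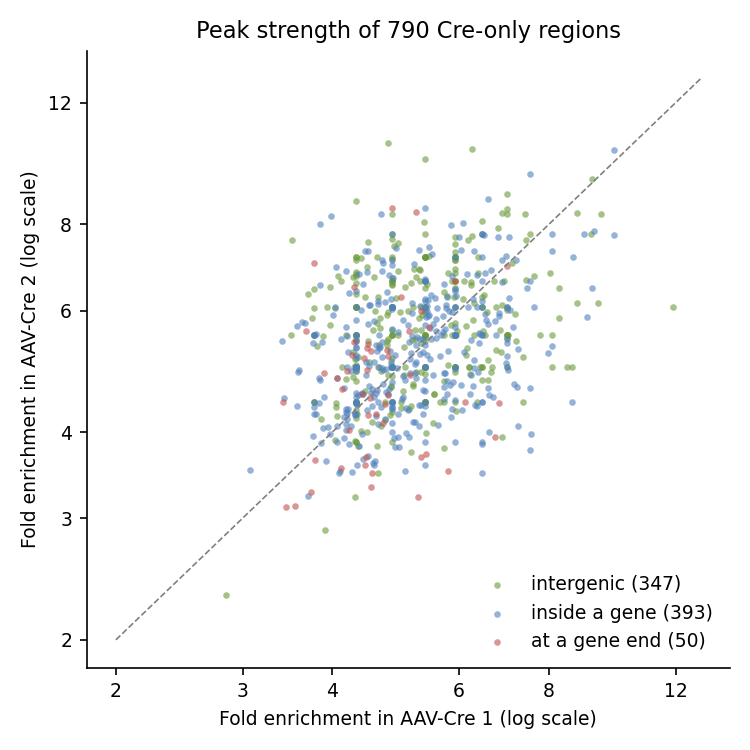
Fold enrichment of each Cre-only region in AAV-Cre 1 and AAV-Cre 2 (the authors' values, log scales), with 1 point for each region coloured by position and a dashed line of equal folds. Most points lie near the medians of 5.11 and 5.40, and a few reach 8 or more in both libraries.

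The members just inside the rule were close to the authors' threshold. At 39 members (4.94%) the weaker AAV-Cre peak had a −log10 q under 2, and the lowest value was 1.41, in lists whose lowest values were 1.30 to 1.31. Just outside the rule were 1122 regions with a peak in both AAV-Cre libraries and in a single AAV-GFP library. Of these, 907 had the control peak in AAV-GFP 1, whose list was the longest, and 215 in AAV-GFP 2. The single control peak had a median −log10 q of 5.68 and a median fold of 5.13, and 29 such peaks (2.58%) had a −log10 q under 2. Their AAV-Cre peaks had median folds of 5.09 and 5.30, close to those of the members. The nearest AAV-GFP peak lay a median of 9220 bp from a Cre-only region. It lay within 500 bp of 70 members (8.86%) and over 10 kb from 376 (47.6%), so some members flank a control peak and others stand alone.

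For each group the authors also deposited an overlap list, called the group list here. That of AAV-Cre held 16614 peaks, fewer than either AAV-Cre library. As a list of overlapping peaks, it may hold most members by construction. In this list, 785 of the 790 members had a peak (99.4%). The other regions with a peak in both AAV-Cre libraries were in that list at 15379 of 15453 (99.5%), so this share was nearly the same, and the list is not independent of the libraries. The 5 members without a group peak lay nearest to Tom1l1, Caps2, Dyrk2, Cdk5rap2 and Sorl1. The median fold in the group list was 6.30 (range 2.47 to 12.8), against 7.75 for regions open in all 4 libraries. A peak of the control group list touched 14 members (1.77%), and all 14 lay within 500 bp of an AAV-GFP library peak. Of these 14 members, 7 were at gene ends.

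How many members held depended most on the strength asked of a peak. When every library was held to 23384 peaks, the length of the shortest list, keeping those with the highest −log10 p, 675 members (85.4%) were still Cre-only. That length is the one of AAV-Cre 1, so a member could be lost only through its AAV-Cre 2 peak. Requiring a −log10 q of at least 5 left 171 (21.6%). Both settings only remove peaks, so neither asks whether a weaker control signal lies at a member. Merging peaks up to 500 bp apart left 719 (91.0%), and asking for an overlap of 50% of the shorter peak left 722 (91.4%). The class as a whole then made up 4.63% of regions at equal list length, 0.797% at the stricter q, 1.25% with the wider merging and 1.13% with the stricter overlap. The control-only class made up 5.34%, 14.1%, 12.0% and 10.6% under the same settings. In all 4 settings, and untouched by the control group list, 163 members (20.6%) remained, of which 2 lay at gene ends, 86 inside genes and 75 between genes.

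The strongest Cre-only region lay inside Fkbp6, at chr5:135326124-135326748, a gene that encodes an immunophilin needed for meiosis in the male germline. Its fold enrichment was 9.87 in AAV-Cre 1, 10.2 in AAV-Cre 2 and 12.8 in the group list. The region did not touch either end of Fkbp6, and the nearest AAV-GFP peak was 39535 bp away. The second, at chr11:71649557-71650046, had folds of 9.19 and 9.32 and lay 99846 bp from Wscd1, the nearest protein-coding gene. It is the region that covers the start of Gm33964. The third lay 4166 bp from Cmya5, which encodes a cytoskeletal protein of striated muscle, with folds of 8.76 and 8.32. Lemd2, which encodes a protein of the inner nuclear membrane, was the gene nearest to the fourth region, 43097 bp away, with folds of 9.46 and 8.29.

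The genes at the next regions differ in their known roles. A region inside Cacng3, which encodes an auxiliary subunit of AMPA receptors, had folds of 9.84 and 7.73. Adam23 encodes a neuronal adhesion protein of the disintegrin family, and the region 11108 bp from it had folds of 9.16 and 7.73. Further regions lay inside Dapl1 (9.25 and 7.82), inside Parg, the hydrolase of poly(ADP-ribose) (8.94 and 7.73), and inside LOC108168726 (8.08 and 7.73). A region inside Syk, the tyrosine kinase of immune receptors, had folds of 7.54 and 9.46, higher in the second library. The remaining regions lay near Atxn7l3b, Zfp507 and Elac2 and inside Ddhd1, a phospholipase gene, and Msi2, an RNA-binding protein gene, with library folds between 6.64 and 8.29. Of these 15 regions, 8 lay inside genes, 7 between genes and 0 at gene ends. All 15 remained Cre-only in every one of the 4 settings, and the nearest AAV-GFP peak was 4659 to 58133 bp away. Under the list-length and q settings, staying Cre-only follows from their high rank, because those settings only remove weaker peaks.

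**Figure D5:**
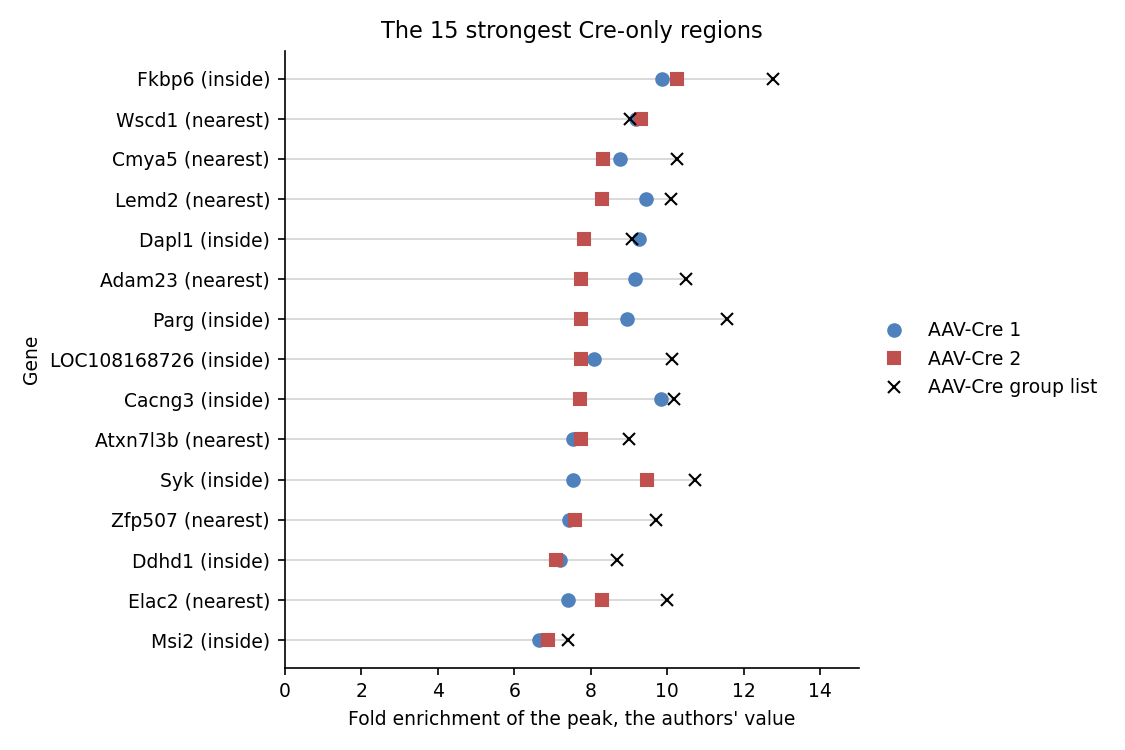
Fold enrichment of the 15 strongest Cre-only regions in AAV-Cre 1, AAV-Cre 2 and the AAV-Cre group list (the authors' values), named by the gene that holds the region or lies nearest to it. Library folds ran from 6.64 to 10.2, and the region inside Fkbp6 reached 12.8 in the group list.

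At the other end of the ranking were the 5 weakest members. They lay inside both Deaf1 and Tmem80 (folds 4.08 and 3.48), near Rplp1 (4.63 and 3.48), inside Map4k3 (3.43 and 4.48), at the start of Idh3b (3.42 and 4.42) and inside Siah3 (3.41 and 5.42). The highest fold of any member in a single library was 11.9, in AAV-Cre 1, at a region 2369 bp from Uncx, which encodes a homeodomain factor. Its fold in AAV-Cre 2 was 6.07. This region shows how far the libraries could differ at 1 member.

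The 50 regions at gene ends belonged to 54 genes. The region lay within 1 kb of a start at 27 genes, and 12 genes had no start in the promoter table. At the other 15 genes no start in that table lay within 1 kb of the region, and this is called the far end here. Strand was not used, so a far end can be a start that the table lacks. These regions were weaker than the other members, with median folds of 4.52 and 4.58, against 5.13 and 5.20 inside genes and 5.22 and 5.52 between genes. They also lay closer to control peaks. The nearest AAV-GFP peak was a median of 555 bp away at gene ends, 8499 bp inside genes and 14344 bp between genes, and it was within 500 bp at 23 of the 50 regions. Of the 54 genes, 32 had a peak of both AAV-GFP libraries in the window of either end and 7 had a peak of 1. At 27 genes another region at a gene end was open in all 4 libraries. The control peak could lie at the opposite end of the gene: the nearest AAV-GFP peak was 18407 bp from the region at Ksr1, 17497 bp at Mau2, 8821 bp at Lhx5 and 8396 bp at Shld1.

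The remaining 15 genes had no AAV-GFP peak within 1 kb of either end. At Dnah11 the fold was 5.93 in AAV-Cre 1 and 6.63 in AAV-Cre 2. The start of Npr3 had folds of 5.45 and 5.67, and that of Ptgds 4.98 and 6.27. Asb2, which encodes a substrate receptor of a ubiquitin ligase, had 5.80 and 3.52 at its start. The other genes with the region at the start were Nfam1 (4.40 and 4.55), a receptor gene of immune cells, and Glmp (4.53 and 5.24), which encodes a lysosomal membrane protein. Regions lay within 1 kb of the far end, without covering it, at Fat1 (5.12 and 5.60), Smcp (5.23 and 8.35), C2cd4d (4.78 and 5.16) and Clybl (4.60 and 4.24). Fat1 is a giant cadherin gene, and Smcp encodes a protein of the sperm mitochondrial capsule. Genes without a start in the table included Gem (4.78 and 4.53), a small GTPase gene induced by neuronal activity, Dcstamp (4.28 and 5.40), Ces1d (3.77 and 7.04) and Has3 (3.67 and 5.61). An AAV-GFP peak lay 366 bp from the region at Fat1 and 378 bp from that at Has3, and neither was Cre-only once peaks up to 500 bp apart were merged. Peak height differed between the libraries by over 1.5 times at Asb2, Smcp, Ces1d and Has3.

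Among genes whose ends also had control peaks were Ezh2, the histone methyltransferase of Polycomb repressive complex 2 (6.83 and 4.40), Lhx5, a LIM-homeodomain factor (6.74 and 3.94), and Ksr1, a scaffold of the MAP kinase pathway (4.85 and 8.43). Smc3, a cohesin subunit gene, Wnt7a, a secreted ligand gene, Lamp1, a lysosomal membrane protein gene, and Eif4ebp2, a repressor of translation, were also in this set. H2ac23, H4c17 and H2bu2 are histone genes, and peaks in families with near-identical copies can depend on how the authors placed reads that match several sites. At equal list length 38 of the 54 genes kept a Cre-only gene end. In all 4 settings 2 did, namely Dnah11 and Shld1, which encodes a subunit of the shieldin complex of DNA repair. The Shld1 region lay 461 bp outside the gene, by its far end, with folds of 7.0 and 6.96.

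Among genes grouped by function, the share of Cre-only regions was compared with 507 of 47248 regions inside or within 10 kb of any protein-coding gene, or 1.07%. The lists were chosen with earlier results known, so shares are given as a description with no test. For PVH neuropeptides and hormones, 3 of 43 regions were Cre-only (6.98%, 2.40% to 18.6%), and 4 were control-only. A region inside Pdyn, the precursor of dynorphins, had folds of 5.17 and 5.51. Tac1 encodes the precursor of substance P, and a region 3581 bp from it had folds of 6.51 and 5.52. Trh encodes thyrotropin-releasing hormone, made by neuroendocrine cells of the PVH, and a region 6664 bp from it had folds of 7.35 and 5.14. The share rests on 3 regions at 3 genes, all of which stayed Cre-only at equal list length, while none did at a −log10 q of at least 5.

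Among PVH lineage transcription factors, 2 of 114 regions were Cre-only (1.75%). They lay at Rreb1, a zinc finger factor (5.74 and 5.63), and Zfhx3, a large zinc finger homeobox factor (5.30 and 6.10), and both held in all 4 settings. Otp, Sim1 and the other factors of this list had no Cre-only region within 10 kb. The melanocortin and energy balance list had 0 of 64, which allows a share of up to 4.69%.

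Neuronal lists lay near the 1.07% of all genes, with 1 lower. Synaptic and pan-neuronal genes had 8 of 512 (1.56%, 0.794% to 3.05%). They included 2 regions at Bsn, the presynaptic scaffold bassoon (6.99 and 5.15, and 4.50 and 4.99), and 1 each at Elavl2, a neuronal RNA-binding protein (6.98 and 5.03), Rbfox1, a splicing regulator (6.46 and 6.08), and Shank2, a postsynaptic scaffold (5.58 and 5.83). Glutamate and GABA receptor genes had 5 of 374 (1.34%), including 2 at Gabrg3, a GABA-A receptor subunit, and 1 at Grm7. Voltage-gated channel genes had 5 of 478 (1.05%), with 2 at Kcnma1, the large-conductance potassium channel, and 1 each at the calcium channel genes Cacna1a, Cacna1d and Cacna1e. Axon guidance and adhesion genes had 6 of 1105 (0.543%, 0.249% to 1.18%), with 2 at Dscam and 1 each at Cdh18, Csmd1, Fat1 and Unc5c. That list held 150 control-only regions (13.6%), against 10.5% of regions at all protein-coding genes. The control-only share was 15.8% for synaptic genes, 12.8% for receptor genes and 10.7% for channel genes.

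Markers of other cell types gave few members. Oligodendrocyte genes had 3 of 70 regions (4.29%, 1.47% to 11.9%). These were the region at Ptgds, a region 5583 bp from Mal, a myelin membrane protein gene (4.85 and 6.08), and another near Cnp. Cnp encodes a myelin enzyme, and the region lay 3850 bp from it, inside another gene, Ttc25. The region in Ttc25 was 21 bp from an AAV-GFP peak and was touched by a peak of the control group list. Astrocyte genes had 0 of 80, oligodendrocyte precursor genes 0 of 41 and microglial genes 0 of 27, which allow shares of up to 3.75%, 7.32% and 11.1%. Endothelial, mural and meningeal genes had 1 of 27, at Tie1, a receptor of endothelial cells. Genes of ependyma and motile cilia had 1 of 81, at Dnah11. Inflammation and stress genes had 1 of 59, at Ifit2, an interferon-induced gene (3.77 and 5.52). The composition of the nuclei was not measured, and its part in these shares was not tested.

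In the other lists, male germline genes had 2 of 56 regions, at Fkbp6 and Smcp. Receptor tyrosine kinase and neuregulin genes had 2 of 185, at Egfr (3.89 and 4.50) and Nrg3 (4.31 and 6.40). Activity-regulated genes had 1 of 80, at Gem, and housekeeping genes 0 of 53, which allows up to 5.66%. In all, 40 Cre-only regions lay at genes of the lists.

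Cre-only regions were scattered along the chromosomes. Of the 1580 regions that directly neighbour a member, 18 were Cre-only themselves (1.14%), against 1.20% of all regions. Their neighbours were control-only in 11.3% of cases and open in all 4 libraries in 19.1%, against 11.5% and 21.7% of all regions. So the neighbours of a Cre-only region were composed much like regions at large. Within 50 kb, 39 members (4.94%, 3.63% to 6.68%) had another member, forming 18 pairs and 1 group of 3, while 751 stood alone. By chromosome, the share ran from 0.964% on chromosome 10 (32 of 3319) to 1.48% on chromosome 2 (78 of 5260, 1.19% to 1.85%).

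The group of 3 lay inside Cit, which encodes citron kinase, a regulator of cytokinesis, and spanned 33.4 kb at chr5:115928904-115962310. Its folds in AAV-Cre 1 and 2 were 7.47 and 6.47 in the first region, 5.07 and 3.98 in the second and 5.46 and 5.66 in the third. The span held 4 merged regions in all, none of them with a control peak, and 12 regions lay inside Cit. The tightest pairs lay inside or near Cacng4 (6.48 kb), A530032D15Rik (8.73 kb), Msi2 (10.3 kb) and Dapk1 (16.0 kb). Cacng4 encodes an auxiliary subunit of AMPA receptors, and Dapk1 a kinase linked to cell death. A530032D15Rik belongs to a family of similar copies. At Msi2 the pair had folds of 5.48 and 6.32 and of 6.64 and 6.88. Near Dapk1 it had 5.93 and 7.67 and 5.39 and 6.08. These groups had Cre-only peaks of ordinary height and the Msi2 pair included the last of the 15 strongest.

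The 393 members inside genes had 406 host genes, since genes can overlap. Of these, 25 genes held 2 members and 4 held 3, namely Agap1, Cit, Ctnnd2 and Pde4d. Pde4d encodes a cAMP phosphodiesterase, and it is 1302 kb long with 36 regions inside. Its members had folds of 4.31 and 5.52, of 4.03 and 6.08 and of 5.05 and 3.51. Ctnnd2, which encodes delta-catenin of neuronal junctions, is 857 kb long and held 29 regions. Agap1, which encodes a GTPase-activating protein for Arf proteins, is 440 kb long and held 33. Apart from Cit, the genes with 3 members were thus long genes with many regions.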

How the data were processed

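Per the labels, ATAC-seq was made from nuclei of the PVH in 4 libraries, 2 for each group. The tools named in the submitters' processing notes are MACS2, Bowtie2, Trim Galore and FastQC, with build mm10. Versions, read filters, the threshold for calling peaks and any read shift for the transposase were not given in the sources used here. Altogether 6 peak lists were deposited, comprising the 4 libraries and an overlap list for each group. A deposited peak has a score (10 times −log10 q), a fold enrichment (a ratio of summit signal to background made by the authors), a −log10 p, a −log10 q and a summit offset in bp. Fold and −log10 p served only to describe and rank peaks within their own list. Read depth is unknown, and peak number can depend on it.

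Peaks of the libraries were merged at 1 bp of overlap on chromosomes 1 to 19 with Python 3.11.15, numpy 2.4.6 and pandas 2.3.3, and the merging was tested on simulated peaks. Wilson intervals used scipy 1.17.1. Genes came from a RefSeq table of GRCm38.p6 with 21887 protein-coding genes, without strand or exons, so introns and exons are not separated. A gene end is within 1 kb of either end. Starts were known for 17492 of these genes, from the RefSeq promoter table. Of 449 entries in 18 gene lists, 447 matched.

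Named were the 15 strongest members by the weaker rank percentile, members at gene ends and at list genes, the 5 tightest groups (those of 3 or more first, then pairs), the 5 weakest members and genes with 3 or more. The members and lists were chosen with earlier results of these data known. The region near Uncx and the 5 members outside the group list were named after their values were seen. Some members that this rule names are not reported here. No test was run. Alternatives changed the list length, the −log10 q, the merging, the overlap, the windows, the genes and the libraries.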

Additional observations from a re-analysis of the deposited data

How the results depend on the processing

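The count of 790 Cre-only regions became 1763 at equal list length, where fewer control peaks remain by construction, and 315 with −log10 q held to 5 or more. It was 1882 when peaks of the AAV-Cre group list were set against those of the control group list. Leaving out 1 library gave 1018 to 3900, the highest without AAV-Cre 1 (3900) and then without AAV-Cre 2 (3112), AAV-GFP 1 (1709) and AAV-GFP 2 (1018), since a rule on fewer libraries admits more regions. It was 796 on all chromosomes, 772 with the stricter overlap and 753 with the wider merging. The gene-end share of 6.33% became 11.3% in lists of equal length, 3.81% with the stricter q, 3.45% with the wider merging, 12.4% with a window of 2500 bp, 9.62% with all genes of the table, and 9.64% to 11.9% without 1 library. It stayed below that of regions in all 4 libraries under the list-length, q, merging and overlap settings (54.9% to 61.5%). The share inside genes moved from 49.7% to 55.9% with all genes and was 47.5% to 51.8% without 1 library. The share in the AAV-Cre group list was 100% with the stricter q or overlap and 98.0% with the wider merging. It was 23.7% without AAV-Cre 1 and 30.9% without AAV-Cre 2, where a peak in the other AAV-Cre library was enough. Without AAV-GFP 1 it was 99.3%, and without AAV-GFP 2 it was 99.4%. The share with another member nearby rose from 4.94% to 14.0% at equal length, where members are more numerous. It was 11.0% within 100 kb, 0.759% within 10 kb and 7.37% to 24.0% without 1 library. Genes with a Cre-only end numbered 215 in lists of equal length, 13 with the stricter q and 111 with the 2500 bp window, against 54. Of 121 named regions, 100 remained Cre-only in lists of equal length, 28 with the stricter q and 93 with the wider merging. Where construction does not give it, the cause was not tested. No paired analysis was possible because the counts come from no test. The lack of read counts means that a missing control peak cannot be told from one just under the threshold.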

Other observations

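On the sex chromosomes, which the rule leaves out, 6 of 1330 merged regions had peaks in both AAV-Cre libraries and neither AAV-GFP library (0.451%), 5 of 1264 on X and 1 of 66 on Y. The sex of the mice is not given in the labels, so these values were kept apart. The region inside Col4a5, a basement membrane collagen gene, had folds of 3.77 in AAV-Cre 1 and 6.08 in AAV-Cre 2.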
